A study of Mus musculus with 4 samples.

Results

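Nicotinamide and NAD handling is described here through 9 genes, namely Nampt, Nmnat1, Nmnat2, Nmnat3, Naprt1 (now named Naprt), Qprt, Nnmt, Sirt1 and Parp1. They were taken by gene name from the non-control probes of 4 single-colour Agilent mouse arrays. The 9 genes had 11 probes, of 34821 gene names and 55681 probes in all. Of these 11 probes 10 passed the filter on dim signals, and each of the 9 genes kept at least 1 probe among the 24596 genes tested.

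NAD carries electrons in energy metabolism and is also used up as a substrate. Cells make it from tryptophan (the de novo route), from nicotinic acid, or by recycling nicotinamide, the vitamin B3 form that is released when sirtuins, PARPs and related enzymes split NAD. Nicotinamide can instead be methylated, which takes it out of recycling. At high concentration nicotinamide inhibits sirtuins and PARPs, and it is a common additive in protocols that turn progenitor cells into insulin-producing cells.

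The arrays compared islet-like clusters (2 arrays) with islets of Langerhans (2 arrays), both from Swiss albino male mice of 10 to 12 weeks, with pools of 2 to 4 mice as the source. The clusters were grown from cultured pancreatic cells that resembled mesenchymal stromal cells. Over a 10-day induction in serum-free medium with insulin, transferrin and selenium on low-adherence dishes, they received 0.3 mM taurine on day 3. On day 7 they received 100 mM nicotinamide, 3 mM taurine, 1.5% bovine serum albumin and the hormone GLP-1. The labels name no such agents for the islets, for which a culture of 48 h stands in the titles and fresh isolation in the descriptions. Both cluster arrays came from nicotinamide-treated cells, so nicotinamide, the other agents, the starting cell type and the culture cannot be told apart in this comparison. Whether replicate arrays stem from separate pools of mice is not given in the labels. The p-values therefore cover no more than array-to-array spread, which could be technical.

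Each value below is the log2 of an array's processed signal relative to the 75th percentile of that array, so 0 is a probe at that percentile and a difference of 1 is 2-fold. Differences are clusters minus islets with the SE of limma's fit, and a gene passed the test when its p, adjusted over the 24596 genes by Benjamini-Hochberg, was under 0.05. Levels of different probes were not set against each other. In these bulk samples fewer cells of a type and less RNA per cell cannot be told apart.

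The probes that carry the results are shown because each value is the brightness of 1 such 60-base oligonucleotide. They are printed 5′ to 3′ from the array files, whole for the first Nnmt probe and the Parp1 probe and as the first 30 bases for the others. No letters are capitalised, since no part of a probe is singled out.
Nnmt: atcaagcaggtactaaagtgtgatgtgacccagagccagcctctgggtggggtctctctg
Nnmt, the other probe: tatttcactgtcagtatttagcaaacatct
Naprt1: tggacagtttgagtgctcgaggtcccctgt
Nampt: actaacatgttcattgtacagatgtgtggg
Nmnat2: taatcgagaagtccagtgtttgactaaaag
Parp1: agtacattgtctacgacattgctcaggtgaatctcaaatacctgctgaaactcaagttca
On the mm9 assembly, per the file headers, the Nnmt probe lies on the minus strand at chr9:48400368-48400427 and the other Nnmt probe at chr9:48413168-48413227. These Nnmt probes lie 12.7 kb apart and match the transcript from base 521 and, in another transcript model, from base 31. The Naprt1 probe lies at chr15:75721400-75721459 on the minus strand. The Nampt probe lies at chr12:33535475-33535534, the Nmnat2 probe at chr1:154964383-154964442 and the Parp1 probe at chr1:182530341-182530639, all on the plus strand. The 60 bases of the Parp1 probe stretch over 299 genomic bases, so the probe crosses an exon junction. The other 5 probes printed here are unbroken in the genome.

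Of the 9 genes, Nnmt and Nmnat2 rose in the clusters, Nampt, Naprt1 and Parp1 fell, and Nmnat1, Nmnat3, Qprt and Sirt1 did not pass the test. The 5 genes called make 55.6% of the 9, and 54.8% of all 24596 genes were called. By direction, 26.6% of all genes were called higher in the clusters and 28.2% lower. The 5 genes called also differed at least 2-fold (55.6% of the 9), and 40.3% of all genes were both called and at least 2-fold different. The median difference was -0.04 over the 9 genes and -0.10 over all genes tested. The share of NAD genes called, whatever the fold, was thus close to that of all genes, and the results lie in which genes moved and how far. The arrays of the 2 groups did not overlap for 7 of the 9 genes (77.8%), beside 79.9% of all genes. Of these 7, 4 were higher in the clusters (37.2% of all genes) and 3 were lower (42.7%).

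**Figure D1:**
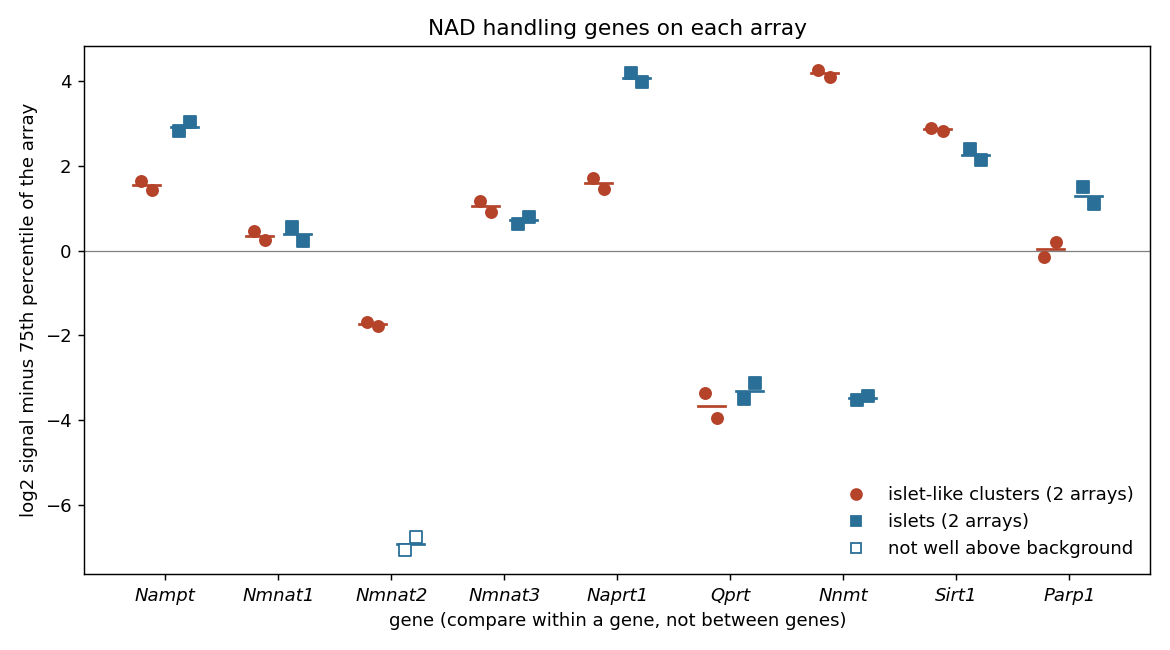
Log2 signal of the 9 NAD genes relative to the 75th percentile of each array (vertical axis), with 1 point per array and a line at the mean of each group of 2; open squares were not well above background. Nnmt and Nmnat2 stand far higher in the clusters, Naprt1, Nampt and Parp1 stand lower, and the points of Nmnat1 and Qprt overlap.

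Nnmt had the largest difference of the 9. It encodes nicotinamide N-methyltransferase, which transfers a methyl group from S-adenosylmethionine to nicotinamide. Its level was 4.25 and 4.09 in the clusters and -3.52 and -3.43 in the islets. All 4 values were well above background, and the processed signals behind them were 6271 and 6608 against 28.3 and 23.2. The difference was 7.65 ± 0.23 (SE, n = 2 per group), or 201-fold higher in the clusters (limma, adjusted p = 1.31e-08). Sorted by signed difference, Nnmt was number 91 from the top of the 24596 genes. The 95% interval of the fold ran from 140 to 287.

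The other Nnmt probe, near the 5′ end of its transcript model, gave -1.86 and -2.21 on the cluster arrays, against -5.65 and -6.25 on those of the islets. Neither islet value was well above background, so there is only a bound. The clusters stood at least 9.35-fold higher by that probe. Its difference as measured was 3.91 (limma over all probes, adjusted p = 1.37e-05), and the p belongs to this difference, not to the bound. A bound of this kind sets the cluster mean against a floor on each islet array. The floor is the higher of the dim probe's own signal and the lowest signal among well-detected probes. It holds for the scanner software's own background subtraction. Both Nnmt probes were therefore higher in the clusters, and the sizes cannot be set side by side, since one is a bound. The size also moved with the processing. With the mean of both probes in place of the brighter one the Nnmt difference was 5.78. The normexp method, in place of the scanner software's own subtraction, gave 6.01. It was run with an offset of 50 added to each signal, which by itself shrinks differences of dim probes here and below.

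Nampt and the Nmnat genes carry out the recycling of nicotinamide. Nampt encodes nicotinamide phosphoribosyltransferase, which turns nicotinamide into nicotinamide mononucleotide and is the rate-limiting enzyme of that route. Its level was 1.65 and 1.43 in the clusters and 2.82 and 3.02 in the islets, so every cluster value lay below every islet value. It fell by 1.38 ± 0.24 on the log2 scale (SE, n = 2 per group), which is 2.60-fold lower (limma, adjusted p = 0.000915). Without islet replicate 2 the difference was -1.28 and did not pass (limma, adjusted p = 0.0590).

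The 3 Nmnat genes encode the enzymes that join adenylate to the mononucleotide to give NAD, with Nmnat1 in the nucleus, Nmnat2 at the Golgi and in axons, and Nmnat3 in mitochondria. They did not move as 1 group. Nmnat2 gave -1.68 and -1.77 on the cluster arrays. On the islet arrays it gave -7.06 and -6.75, neither well above background. It was at least 12.6-fold higher in the clusters. As measured, the difference was 5.18 ± 0.24 (limma, adjusted p = 1.34e-07). With the normexp correction and its offset of 50 it was 1.27, so the bound holds only for the scanner software's own subtraction.

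Nmnat1 gave 0.45 and 0.25 on the cluster arrays, against 0.56 and 0.22 on those of the islets, so the groups overlapped. The difference was -0.04 ± 0.24 (limma, adjusted p = 0.897), with a 95% interval from -0.59 to 0.51, and its sign turned under 3 of 17 processing alternatives. Nmnat3 gave 1.17 and 0.92 in the clusters and 0.63 and 0.79 in the islets. These values did not overlap, yet the difference of 0.34 ± 0.24 did not pass (limma, adjusted p = 0.254), with a 95% interval from -0.20 to 0.87. It passed when arrays were scaled to their median (0.53, limma, adjusted p = 0.0322). The second Nmnat3 probe was left out by the filter, since it was well above background on islet replicate 1 alone. It gave -6.62 and -6.12 on the cluster arrays, against -4.48 and -5.28 on those of the islets, the opposite order to that of the probe tested.

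Naprt1 encodes nicotinate phosphoribosyltransferase, the entry of nicotinic acid into NAD synthesis. Its level was 1.70 and 1.46 in the clusters and 4.17 and 3.97 in the islets. It fell by 2.49 ± 0.24 (SE, n = 2 per group), or 5.63-fold (limma, adjusted p = 1.89e-05). The difference lay between -2.68 and -2.30 in the 17 alternatives run and passed in each. Among the genes that fell, Naprt1 had the largest difference of the 9.

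Qprt encodes quinolinate phosphoribosyltransferase, which takes the tryptophan-derived quinolinic acid into the NAD route. It gave -3.37 and -3.95 on the cluster arrays, against -3.49 and -3.11 on those of the islets. The groups overlapped, and the difference of -0.36 ± 0.28 did not pass (limma, adjusted p = 0.298), with a 95% interval from -0.99 to 0.27. The probe was dim, with processed signals from 25.0 to 31.9, though well above background on all 4 arrays.

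Sirt1 and Parp1 encode enzymes that split NAD. Sirt1 encodes a nuclear protein deacetylase, and gave 2.89 and 2.81 in the clusters and 2.39 and 2.13 in the islets. The groups did not overlap, and the difference was 0.59 ± 0.23, which narrowly missed the threshold (limma, adjusted p = 0.0584). Its 95% interval, before adjustment, ran from 0.06 to 1.12. In 5 of the 17 alternatives Sirt1 passed, with differences from 0.54 to 0.78.

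Parp1 encodes the main poly(ADP-ribose) polymerase of the DNA damage response. Its level was -0.14 and 0.19 on the cluster arrays, against 1.49 and 1.09 on those of the islets. It fell by 1.27 ± 0.26 (SE, n = 2 per group), or 2.41-fold (limma, adjusted p = 0.00245). Without islet replicate 1 the Parp1 difference was -1.07 and did not pass, and without islet replicate 2 it was -1.47. Parp1 was also the exception in a pattern of the cluster arrays, where the other 8 genes were higher on replicate 1 than on replicate 2. Over all genes the median of that difference between the cluster arrays was 0.22.

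**Figure D2:**
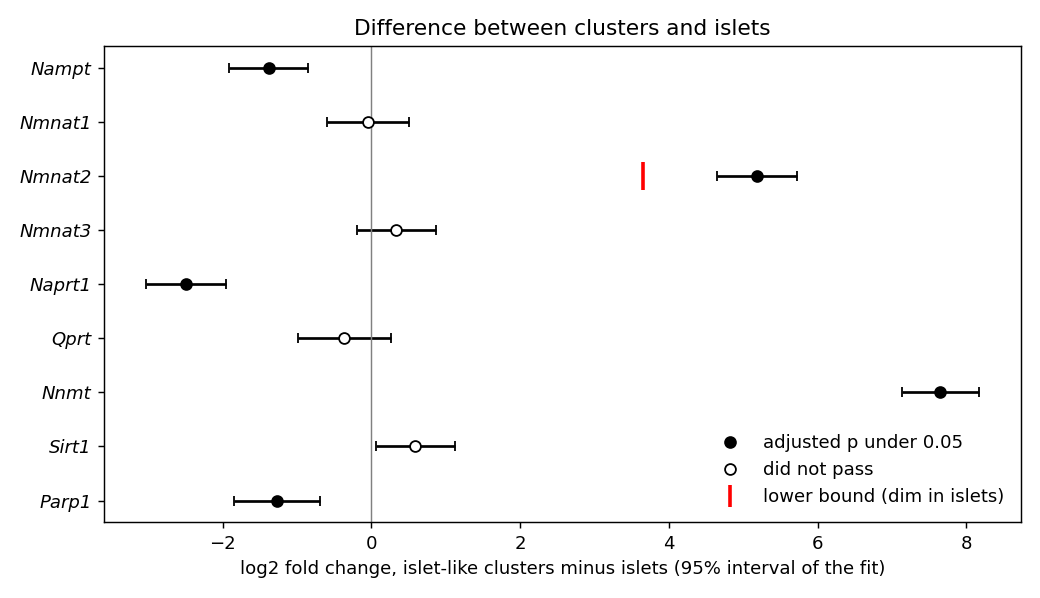
Difference in log2 signal, clusters minus islets, of the 9 NAD genes (horizontal axis, 0 is no difference), with bars for the 95% interval of limma's fit, filled points for genes past the threshold and a red tick for the lower bound of Nmnat2. Nnmt at 7.65 and Nmnat2 at 5.18 (as measured, a bound in the islets) lie to the right, Parp1, Nampt and Naprt1 lie to the left, and the bars of Nmnat1, Nmnat3 and Qprt cross 0.

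Another 53 genes of NAD metabolism were listed by role, and all 53 had probes. Of these, 45 were tested and 27 passed, 14 higher and 13 lower in the clusters, which is 60.0% of the 45 beside 54.8% of all genes. Their median difference was 0.06, beside -0.10 over all genes. The 8 genes left out by the filter were Acmsd, Art1, Art4, Ido1, Ido2, Kynu, Sarm1 and Tdo2, whose 10 probes were well above background on none of the 4 arrays.

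Salvage and phosphorylation genes were measured on 7 genes, of which 4 rose, 2 fell and 1 did not pass. The 4 include the NAD kinase gene Nadk, whose probes were called in opposite directions, at 0.88 and -0.76. Nt5e encodes CD73, the cell-surface nucleotidase that makes nucleosides from mononucleotides and is also a common surface marker of mesenchymal stromal cells. It gave 3.46 and 3.35 in the clusters and -0.96 and -1.98 in the islets, a difference of 4.88 ± 0.33 (limma, adjusted p = 1.77e-06). Pnp, purine nucleoside phosphorylase, rose by 1.93 ± 0.23 (limma, adjusted p = 9.06e-05). This call is uncertain as to the gene, because its close copy Pnp2 could share the probe's signal. The nicotinamide riboside kinases Nmrk1 and Nmrk2 went in opposite directions. Nmrk1 gave 0.34 and 0.16 against -1.10 and -0.98 in the islets, a rise of 1.30 ± 0.23 (limma, adjusted p = 0.00119). With an array left out the Nmrk1 difference ran from 1.20 to 1.39, and in 1 of these fits it did not pass. Nmrk2 gave -4.29 and -5.12 on the cluster arrays, of which 1 was well above background, and -2.98 and -2.66 on the islet arrays. It fell by 1.88 ± 0.31 (limma, adjusted p = 0.000676), and by 0.66 with the normexp correction. Nadsyn1 encodes NAD synthetase, which the nicotinic acid and de novo routes share, and gave 0.07 and -0.17 against 2.03 and 1.79 in the islets. It fell by 1.96 ± 0.24 (limma, adjusted p = 0.000101), so this synthetase and Naprt1, the entry of the nicotinic acid route, were both lower in the clusters.

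Among 6 genes of redox exchange and breakdown, 3 rose and 2 fell. The other, Enpp1, did not pass by its brighter probe at 0.41, while its other probe was called lower at -1.60 in the fit over all probes. Aox1 encodes an aldehyde oxidase that oxidises methylated nicotinamide, the product of Nnmt. It gave 1.35 and 1.12 on the cluster arrays, against -2.91 and -1.86 on those of the islets, and rose by 3.63 ± 0.34 (limma, adjusted p = 1.66e-05). The methyltransferase gene and this gene for a later step were thus both higher on each cluster array than on each islet array. Nnt, the mitochondrial transhydrogenase that passes hydride from NADH to NADP, gave 5.02 and 4.84 against 2.73 and 2.69 in the islets. It rose by 2.22 ± 0.23 (limma, adjusted p = 3.31e-05), and its 3 probes were all higher in the clusters, by 1.03 to 2.37. Enpp3, an ectoenzyme that cleaves nucleotides, was not well above background in the islets and stood at least 8.27-fold higher in the clusters. Its difference was 3.16 as measured (limma, adjusted p = 0.000113) and 0.77 with the normexp correction. It was 2.48 without islet replicate 1 and 3.84 without islet replicate 2. Nudt12, a hydrolase of NADH, was not well above background in the clusters and stood at least 7.22-fold lower there. Its difference was -2.92 as measured (limma, adjusted p = 5.99e-06) and -1.13 with the normexp correction. Nudt13 fell by 0.91 ± 0.24 (limma, adjusted p = 0.00925). With an array left out its difference ran from -1.05 to -0.77, and in 3 of these fits it did not pass.

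Beside Sirt1 and Parp1, 24 genes of enzyme families that split NAD were tested, of which 6 rose, 7 fell and 11 did not pass. Among the 11, Parp10, Parp4 and Tnks2 had another probe that was called lower in the fit over all probes. Those probes gave -1.28, -0.65 and -0.79, beside -0.46, 0.50 and 0.54 by the brighter probes. Art3, of the ADP-ribosyltransferase family, gave 2.39 and 2.20 in the clusters and -1.59 and -1.39 in the islets, and rose by 3.78 ± 0.23 (limma, adjusted p = 9.87e-07). Parp8 gave 4.10 and 3.91 against 1.23 and 0.79 in the islets, and rose by 3.00 ± 0.25 (limma, adjusted p = 7.99e-06). PARP family members went both ways. Parp16, an enzyme of the endoplasmic reticulum, gave -1.54 and -1.90 against 1.86 and 2.18 in the islets, and fell by 3.74 ± 0.25 (limma, adjusted p = 1.70e-06). Parp14 gave 0.76 and 1.48 against 4.50 and 4.64, and fell by 3.45 ± 0.28 (limma, adjusted p = 6.90e-06). Outside the rule for named genes, and singled out after their values were seen, Parp3 (1.94) and Tiparp (1.98) also rose and Parp9 (-2.08) and Parp12 (-1.87) also fell. Of the sirtuins beside Sirt1, singled out likewise, Sirt3 rose by 0.63 ± 0.24 (limma, adjusted p = 0.0475), a call lost in the fit over all probes, and Sirt5 fell by 1.34 ± 0.25 (limma, adjusted p = 0.00165).

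Cd38 and Bst1 encode related NAD glycohydrolases and are neighbours on chromosome 5, with 0 coding genes between them in the RefSeq table. Cd38 gave -0.56 and -0.67 on the cluster arrays, against 1.80 and 1.64 on those of the islets, and fell by 2.33 ± 0.23 (limma, adjusted p = 2.45e-05). Bst1, also called CD157 and known on stromal cells of the bone marrow, gave 1.66 and 1.43 against -0.28 and -0.92 in the islets. It rose by 2.15 ± 0.28 (limma, adjusted p = 0.000149). The neighbours therefore moved in opposite directions.

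De novo synthesis genes were mostly too dim to test. Of 8 listed, 3 were tested, and Afmid, the kynurenine formamidase, fell by 0.93 ± 0.26 (limma, adjusted p = 0.0133). Its call was lost with no filter on dim probes (limma, adjusted p = 0.0535). With an array left out the Afmid difference ran from -1.15 to -0.70, and in 3 of these fits it did not pass. Of 5 genes that remove ADP-ribose from proteins, 1 rose, 1 fell and 3 did not pass. Among these 3, Macrod2 had 1 probe called higher in the fit over all probes, and its kept probes ran from -0.08 to 2.55. Adprh, the ADP-ribosylarginine hydrolase, gave 5.66 and 5.42 against 3.15 and 3.01 in the islets, and rose by 2.46 ± 0.23 (limma, adjusted p = 1.94e-05). Macrod1, a hydrolase that acts on mono-ADP-ribose, fell by 0.80 ± 0.24 (limma, adjusted p = 0.0181), a call lost with no filter on dim probes (limma, adjusted p = 0.0619). With an array left out the Macrod1 difference ran from -0.96 to -0.65, and in 3 of these fits it did not pass. With the replicate number as a block in limma, Afmid (adjusted p = 0.0602) and Macrod1 (adjusted p = 0.0526) also lost their calls.

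**Figure D3:**
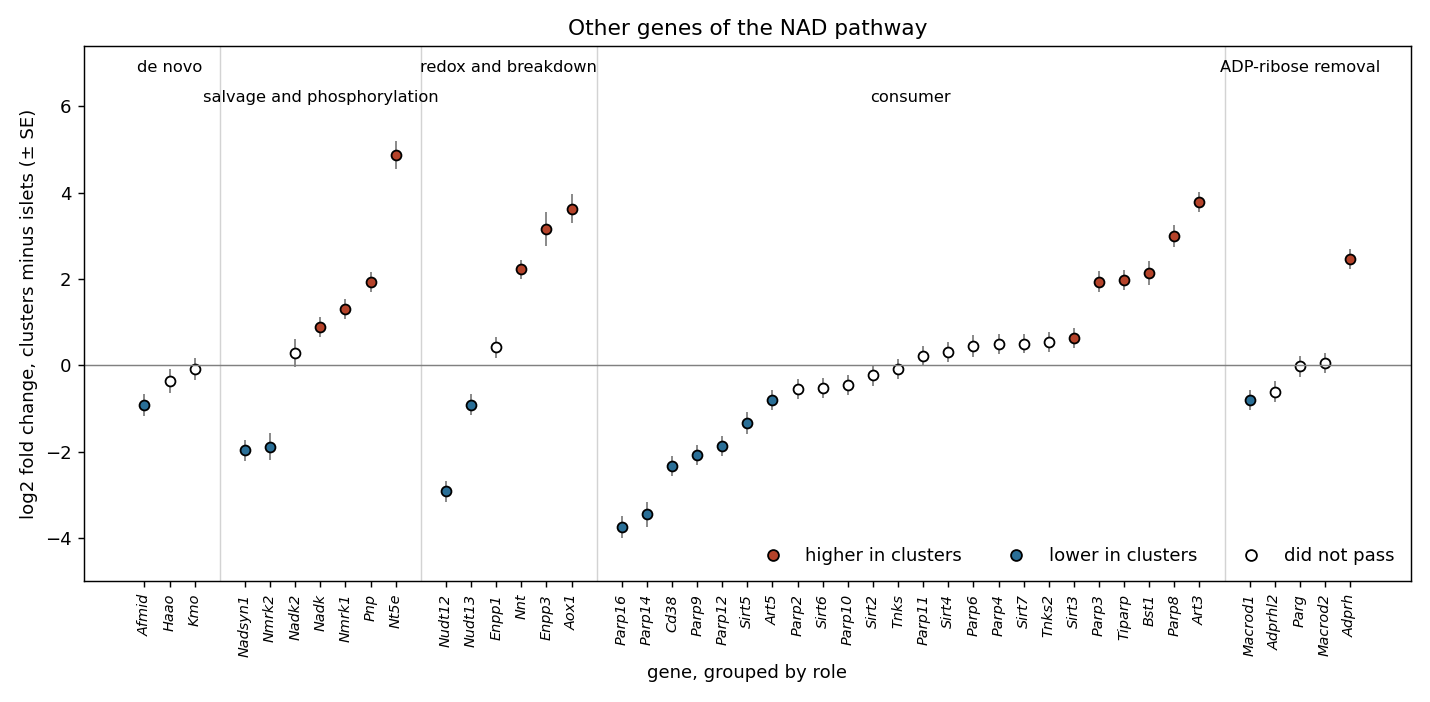
Difference in log2 signal, clusters minus islets, of the 45 other NAD pathway genes tested, grouped by role, with 1 point per gene, bars for the SE and filled points for those past the threshold. Each role except the de novo genes holds genes that rose and genes that fell, from Nt5e at 4.88 to Parp16 at -3.74.

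The cell types that the samples could hold moved with these results. All 10 markers of mesenchymal stromal cells rose in the clusters, where their summed signal, as a multiple of the array's 75th percentile, was 1774 to 2114 beside 47.4 to 51.8 in the islets. The 10 acinar markers fell, from sums of 4052 and 6469 on the islet arrays to 1.59 and 1.41 on the cluster arrays, with Amy2a5, Cela2a, Cpa1, Pnlip and Ptf1a not well above background there. Of 10 islet endocrine markers 9 fell and 1, Pcsk1, rose, with sums of 2.14 to 2.78 in the clusters and 32.0 to 183 in the islets. Gcg, Iapp and Slc2a2 were not well above background in the clusters, whereas the other 7 were on both cluster arrays. Of these 7, Ins2 gave -0.82 and -1.70 in the clusters and 5.45 and 2.86 in the islets. The islet arrays carried endocrine markers, and also acinar and duct markers. A value lower than in the islets is thus not a contrast with endocrine cells alone. Duct markers fell in 5 of 6 (sums 543 to 634 in the clusters, 206 to 246 in the islets). The other, Spp1, rose and makes up nearly the whole cluster sum, at log2 levels of 9.31 and 9.08 against 6.26 and 6.17 in the islets, while Krt19 gave -5.50 and -4.62 against 7.23 and 6.58. Endothelial markers fell in 6 of 6 (2.90 to 3.56 in the clusters, 16.0 to 16.2 in the islets). Macrophage markers rose in 1 and fell in 4 of 8 (45.7 to 53.4 and 161 to 189), adipocyte markers rose in 1 and fell in 2 of 3 (5.29 to 6.36 and 15.4 to 18.3), and erythroid markers fell in 2 of 2 (0.0719 to 0.126 and 0.746 to 4.58). The part of these cell types in the differences of Nnmt, Nampt, Naprt1, Nmnat2 and Parp1 was not tested. Islet replicate 1 held more endocrine signal and islet replicate 2 more acinar signal. Naprt1 was higher on islet replicate 1 by 0.20 and Parp1 by 0.39, and Nnmt was higher on islet replicate 2 by 0.09, Nampt by 0.20 and Nmnat2, dim on both, by 0.31.

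The 4 arrays had 59.7% to 63.6% of their spots well above background and no saturated spot. Arrays of 1 group correlated at r = 0.985 (clusters) and 0.989 (islets) over probes, and arrays of different groups at 0.796 to 0.810. On cluster replicate 1, 510 spots were non-uniform and left out, beside 2 to 26 on the other arrays. The authors' table minus the values used here had a median of -0.0968 on that array.

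Genes with the pattern most like Nnmt and Naprt1 were found by the root mean square difference of gene-centred log2 values over the 4 arrays, among 20779 genes. Nearest to Nnmt among named genes was Ptgs2, which encodes the prostaglandin synthase COX-2, at 0.0318, with levels of 6.66 and 6.55 in the clusters and -1.07 and -1.05 in the islets. Nearest to Naprt1 were Golm1 (0.0031), a Golgi membrane protein gene, Ica1 (0.0162), an islet cell autoantigen gene, and Strbp (0.0248). With 4 arrays in 2 groups, likeness of this kind rests mostly on an equal difference between the groups.

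Promoter windows of 300 bases, from 250 before to 50 after the transcript start, were matched in RefSeq's table (GRCm38.p6) for 7 of the 9 genes. Nnmt and Naprt1 had no match. The E-box CACGTG, a palindrome that reads alike on both strands, was searched because factors that bind it include CLOCK and MYC, which are known regulators of Nampt. The window of Nampt itself held none. The E-box stood in the windows of Sirt1, which did not pass the test, and Parp1, which fell, and in 7.15% of the 32851 windows of the table. The stretches that hold it are printed with the E-box in capitals.
Sirt1, chr10:63339061-63339162, minus strand: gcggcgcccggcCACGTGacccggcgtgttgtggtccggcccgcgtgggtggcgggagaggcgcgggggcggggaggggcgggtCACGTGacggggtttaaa
Parp1, chr1:180568830-180568859, plus strand: acctcccaaggaCACGTGctgaagccccgc
The copies in Sirt1 lay 115 and 43 bases before the start and that in Parp1 lay 49 bases before it. The STAT-type motif TTCNNNGAA, also alike on both strands, stood in the window of Qprt alone among the matched genes, and in 8.30% of all windows. These are matches of letters, and no binding was measured.

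**Figure D4:**
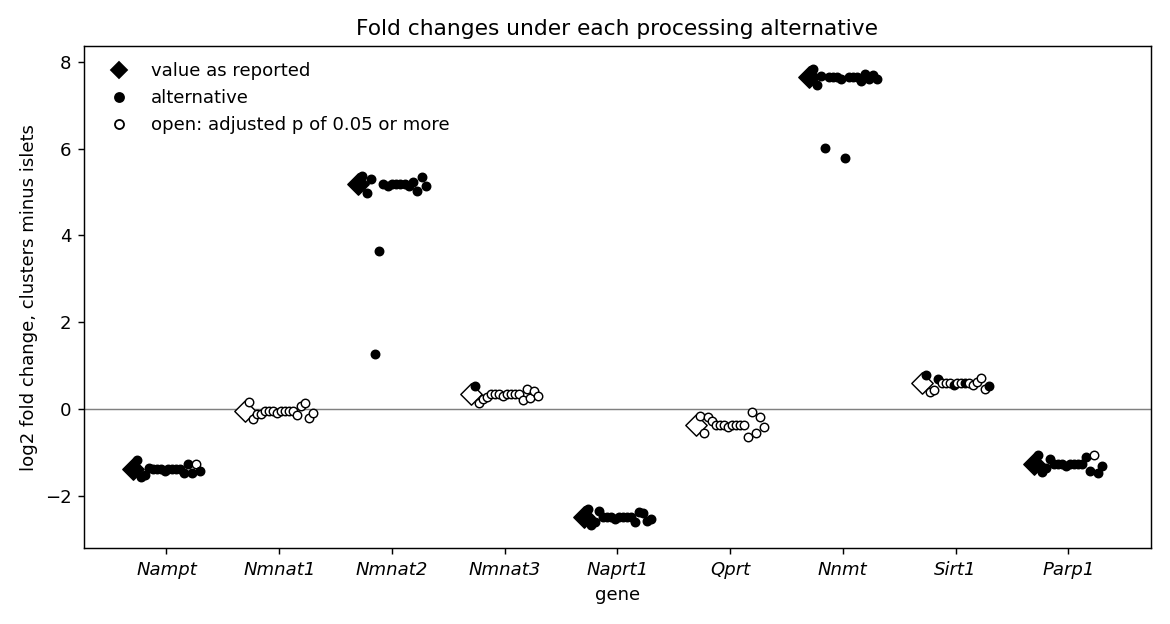
Difference in log2 signal, clusters minus islets, of the 9 NAD genes under the analysis reported and its 17 alternatives (vertical axis), with 1 point per setting, a diamond for the value reported and open symbols where limma's adjusted p was 0.05 or more. Naprt1 stays between -2.68 and -2.30, Nmnat2 spreads from 1.27 with the normexp correction to 5.38 with median scaling, and Nmnat1 lies on both sides of 0.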

How the data were processed

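RNA from 2 islet-like cluster and 2 islet samples was amplified from 500 ng total RNA with an oligo-dT primer and Cy3, per the labels' protocols. The deposited files of the scanner give the intensity of each spot (linear, not log), background-subtracted by Agilent Feature Extraction 11.5.1.1, per the file headers, with probe positions on mm9. The authors' value table holds log2 values of the same arrays relative to about the 75th percentile, with no centring per gene and no turned direction (column medians -3.61, -3.70, -3.50 and -3.37), and served as an alternative.

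Control spots and non-uniform spots were left out, and spots of a probe were averaged. Log2 processed signal was taken minus the array's 75th percentile over non-control probes. Of 55681 probes, 490 lacked a value and 34974 were kept, being detected well above background by both arrays of 1 or both groups. A gene's probe with the highest mean stood for it. The test was limma 3.58.1 (R 4.3.3), clusters minus islets (2-sided, no covariates, Benjamini-Hochberg over 24596 genes, threshold 0.05, 2 residual and 9.06 total degrees of freedom). The number of arrays limits the precision. The script was tested on simulated data. The 17 alternatives changed background correction, scaling, filters, probe averaging, variance model, a replicate block, and left out each array.

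The 9 genes and the lists were chosen with earlier results of these data known. Named pathway genes are the 3 called genes per role and direction with the largest difference. Same-numbered arrays did not deviate together (correlation of deviations -0.0235, 2 pairs).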

Additional observations from a re-analysis of the deposited data

How the results depend on the processing

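Naprt1, Nnmt and Nmnat2 passed with the same sign in every alternative that gave them a value (17, 17 and 16), and Nmnat2 had no value when probes had to be well above background on all arrays, which left 1 of the 9 genes higher by construction. Scaling to the array's median made 4 of the 9 genes higher, with Sirt1 and Nmnat3 added, and moved the median difference of all genes from -0.10 to 0.09. Scaling over detected probes moved it to -0.29, and the counts of the 9 genes stayed at 2 higher and 3 lower. Nmnat1 turned to 0.15 under median scaling and ran from -0.21 to 0.13 with an array left out. The cause of these shifts in sign was not tested.

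With an array left out, the genes called ran from 7650 to 10120 of the 13490 (higher 3909 to 5404, lower 3741 to 5442), the lowest without islet replicate 2 and 8266 without islet replicate 1. The other NAD pathway genes called ran from 19 to 24, beside 27. Under the replicate block 11307 genes, 24 pathway genes and 5 of the 9 genes were called. Over all genes, 6545 were higher and 6945 lower as reported, 7937 and 5723 with median scaling, and 6066 and 8982 with scaling over detected probes.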
